A study of Mus musculus with 4 samples.

Results

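Thymic dendritic cells that carried transcripts of both Xcr1 and Ccr7 were examined. Cells were taken from 3 droplet libraries of sorted thymic cells and were kept when they held 1000 to 7000 genes and at most 10% mitochondrial UMIs, a UMI being 1 captured RNA molecule. A doubly positive cell had at least 2 UMIs of Xcr1, at least 2 UMIs of Ccr7, fewer than 30 UMIs of C1qa, C1qb and C1qc together, and at most 1 UMI of Cd79a. The rule found 790 of 23549 filtered cells. They were set beside 4003 Xcr1-only cells, which had no Ccr7 UMI, and 4718 Ccr7-only cells, which had no Xcr1 UMI, under the same limits on C1q and Cd79a. The cells were thus chosen by the measured UMIs of 6 genes, and the levels of those genes are given as a description and were not tested.

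The cells came from C57BL/6 mice with a fluorescent reporter of myeloid cells. The MAFIA library (replicate 2) was made from GFP+ thymic cells of a mouse aged 5 weeks that carries Csf1r-EGFP-NGFR/FKBP1A/TNFRSF6, in which the Csf1r promoter drives GFP and an inducible death fusion. Both Cd11cYFP libraries (replicates 1 and 2) were made from YFP+ thymic cells of Itgax-Venus mice aged 9 weeks, in which the Itgax promoter drives the yellow protein. No group was treated, and every library was sorted on its reporter before 3' sequencing, so cells without the reporter are outside what was measured. The study's methods name 1 female MAFIA mouse and 2 male Cd11cYFP mice, and do not say whether MAFIA replicate 2 came from that mouse. Reporter, age and library cannot be told apart, nor can sex.

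Xcr1 encodes the receptor for XCL1 and marks conventional type 1 dendritic cells (DC), the lineage that depends on IRF8 and BATF3 and cross-presents antigen on MHC class I. Ccr7 encodes the receptor for CCL19 and CCL21, which leads DC that have matured toward T cell areas and, in the thymus, the medulla. Maturation in DC is a broad program that raises costimulatory ligands, chemokines, the actin bundler fascin (Fscn1) and regulators of NF-kB, while receptors used to sense and take up antigen fall. In the thymus such cells are known for presenting self antigen to developing T cells.

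NF-kB is a family of transcription factors that bind a short DNA motif, and several of its own subunits and inhibitors are among the genes described here. The 250 bases before the start of 5 genes named in the results are shown for reference, and no gate or test used these sequences. They are RefSeq promoters of build GRCm38.p6, printed 5' to 3' on the gene's strand, with matches to the NF-kB-type motif GGGNNNTTCC on either strand in capitals. Nfkbia, the inhibitor IkB alpha (chr12:55492648-55492897, minus strand), held 1 match that began 29 bases before the start. Nfkb2, which encodes p100 (chr19:46304487-46304736, plus strand, 1 of 3 listed starts), held 2 matches, 38 and 11 bases before it. Rel, which encodes c-Rel (chr11:23770970-23771219, minus strand), held 1 match, 91 bases before it. No match lay in this window of Il12b, the p40 subunit of IL-12 and IL-23 (chr11:44399813-44400062, plus strand), or of Cxcl9, a ligand of CXCR3 (chr5:92328080-92328329, minus strand).
Nfkbia: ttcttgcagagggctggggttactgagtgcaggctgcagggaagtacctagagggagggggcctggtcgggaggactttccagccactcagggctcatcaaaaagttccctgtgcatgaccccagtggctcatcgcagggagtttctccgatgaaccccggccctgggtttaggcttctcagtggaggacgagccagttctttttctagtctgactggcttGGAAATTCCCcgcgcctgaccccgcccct
Nfkb2: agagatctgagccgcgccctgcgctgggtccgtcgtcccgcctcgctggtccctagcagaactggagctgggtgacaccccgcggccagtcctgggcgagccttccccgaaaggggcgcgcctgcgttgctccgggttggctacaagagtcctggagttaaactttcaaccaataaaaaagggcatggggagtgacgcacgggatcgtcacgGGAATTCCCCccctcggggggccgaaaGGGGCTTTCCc
Rel: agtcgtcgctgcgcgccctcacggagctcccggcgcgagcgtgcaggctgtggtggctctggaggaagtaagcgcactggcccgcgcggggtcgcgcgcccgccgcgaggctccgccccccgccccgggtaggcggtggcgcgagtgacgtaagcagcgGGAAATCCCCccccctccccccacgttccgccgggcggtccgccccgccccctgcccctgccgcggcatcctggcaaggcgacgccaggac
Il12b: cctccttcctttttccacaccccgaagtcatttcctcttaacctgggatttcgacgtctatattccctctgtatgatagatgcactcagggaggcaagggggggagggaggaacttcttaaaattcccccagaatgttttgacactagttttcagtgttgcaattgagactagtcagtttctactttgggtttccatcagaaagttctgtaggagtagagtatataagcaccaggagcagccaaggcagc
Cxcl9: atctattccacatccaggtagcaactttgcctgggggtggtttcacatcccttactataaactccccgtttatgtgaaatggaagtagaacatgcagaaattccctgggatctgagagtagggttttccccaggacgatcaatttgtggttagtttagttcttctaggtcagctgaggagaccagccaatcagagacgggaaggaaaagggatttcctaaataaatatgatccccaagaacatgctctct
The motif occurred in 4.65% of 32851 promoters of that length, which came from 27025 genes, of which 5.31% had at least 1 promoter with it. Among 23 listed NF-kB subunits and regulators, 19 had a promoter in the table and 10 of those held the motif. A match is a run of letters and not a measured binding site.

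Doubly positive cells made up a small share of every library, and the share was not the same in each. They were 105 of 6219 filtered cells in the MAFIA library (1.69%, exact Clopper-Pearson 95% interval 1.38 to 2.04), 185 of 7646 in Cd11cYFP replicate 1 (2.42%, 2.09 to 2.79) and 500 of 9684 in Cd11cYFP replicate 2 (5.16%, 4.73 to 5.62), with a mean of 3.09% ± 1.83 (SD, n = 3 libraries). These intervals cover counting error only. Libraries are named in this order in what follows: MAFIA, Cd11cYFP replicate 1, Cd11cYFP replicate 2. Doubly positive cells held a median of 8, 8 and 9 Xcr1 UMIs and 8, 12 and 16 Ccr7 UMIs. On the CPM scale, which gives a gene's UMIs relative to all UMIs of the same gate and library, Xcr1 stood at 369, 397 and 418 in these cells against 712, 630 and 681 in Xcr1-only cells, and Ccr7 at 582, 890 and 859 against 1049, 2173 and 2049 in Ccr7-only cells. No barcode of a doubly positive cell was shared between libraries. In build GRCm39, which the submitters' notes name, Xcr1 (ENSMUSG00000060509) lies at chr9:123681380-123691094 and Ccr7 (ENSMUSG00000037944) at chr11:99035022-99045911, both on the minus strand.

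Cd11cYFP replicate 2 stood apart before any comparison. Cells of other lineages with 2 or more Xcr1 UMIs were taken as the background of free RNA and of droplets with more than 1 cell. Among cells with 5 or more UMIs of Cd79a, a B cell gene, 2.02%, 1.87% and 8.25% had them, and among cells with 5 or more UMIs of Cd3d, Cd3e and Cd3g, which encode the T cell receptor complex, 5.45%, 4.12% and 17.1% had them. Among cells with 2 or more Ccr7 UMIs the shares were 10.7%, 9.34% and 16.7%. Median UMIs were 17529, 10515.5 and 16041 in the Cd3 cells and 17898, 14409.5 and 15151 in the Ccr7 cells. The share was 2.17%, 2.45% and 9.55% among cells with 10 or more Siglech UMIs, a gene of plasmacytoid DC, and 2.39%, 2.34% and 6.41% among cells with 30 or more C1q UMIs, which macrophages express. In the first 2 libraries the Ccr7 cells lay above all 4 backgrounds. In Cd11cYFP replicate 2 they lay above the Cd79a, Siglech and C1q cells but not above the Cd3 cells, so its larger share of doubly positive cells is not read as a difference between libraries. Counts over all genes are given with and without it, and list counts where leaving out 1 library moved them by more than 1.5 times, counts of 2 or fewer aside.

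Total UMIs per cell were compared with the sum that 2 captured cells would give. Median UMIs of doubly positive cells were 27547, 27584 and 24923. Those of Xcr1-only cells were 26356, 24848.5 and 21175, and those of Ccr7-only cells were 16326.5, 13601 and 13915. The doubly positive median was thus 0.645, 0.717 and 0.710 of the sum of the other medians (0.691 ± 0.040, SD, n = 3) and 1.05, 1.11 and 1.18 times the Xcr1-only median. At or above the sum lay 10.5%, 16.8% and 21.6% of doubly positive cells, against 9.18%, 9.67% and 7.69% of Xcr1-only cells. Scrublet, a tool that scores each cell against artificial doublets, placed 11.4%, 24.3% and 33.2% of doubly positive cells among the top scores of their library, where 2.55%, 2.44% and 2.50% of Xcr1-only and 3.81%, 5.39% and 4.32% of Ccr7-only cells were found. The part of doublets in the results was not tested. The counts of genes, the lists and the named genes were recomputed without these cells, and the shares of cells, bins and splits below were not.

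**Figure D1:**
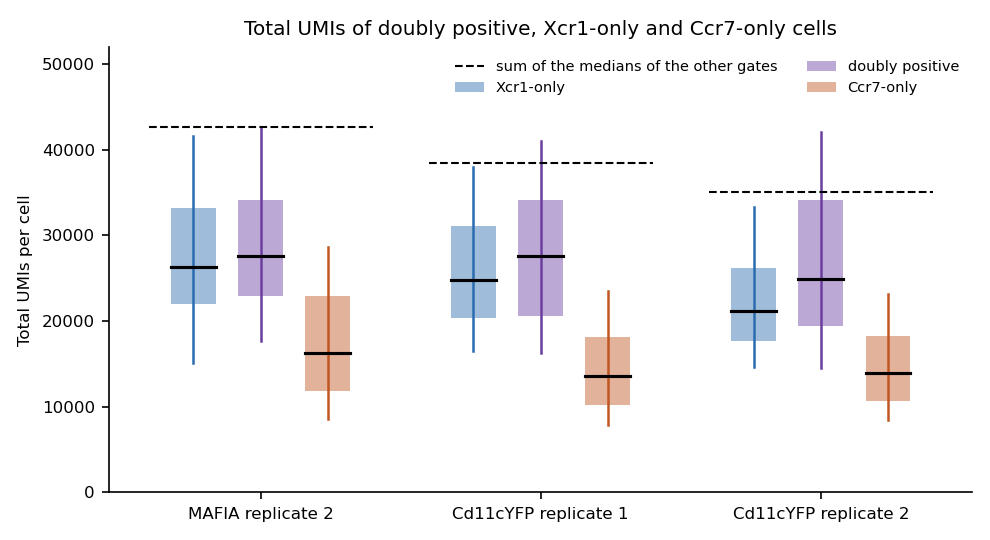
Total UMIs per cell (vertical axis) in the 3 gates of each library. Black bars are medians, boxes the interquartile range, thin lines the 10th to 90th percentile, and dashed lines the sum of the Xcr1-only and Ccr7-only medians. The doubly positive medians of 27547, 27584 and 24923 UMIs lie just above those of Xcr1-only cells and below the dashed lines.

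For tests, UMIs were summed per library and gate and compared over the 3 libraries by edgeR's quasi-likelihood test with the library as a block, and every adjusted p is Benjamini-Hochberg over 14625 genes. Because the gates were cut on Xcr1 and Ccr7 in the same cells, any gene that goes along with either is bound to differ, and the test says only that a difference repeated over the libraries. Log2 differences use edgeR's scaling; on plain CPM, the median of all genes shifts by -0.09 against Xcr1-only cells and by -0.10 against Ccr7-only cells. Doubly positive cells had 18.2% of genes higher and 17.5% lower than Xcr1-only cells. They had 22.5% of genes higher and 22.8% lower than Ccr7-only cells. Counts depended on the libraries: 2663 genes were higher and 2566 lower than in Xcr1-only cells, but 1730 and 1056 without Cd11cYFP replicate 1, and 1648 and 1380 without replicate 2. Likewise 3289 were higher and 3341 lower than in Ccr7-only cells, with 2441 and 1958 without Cd11cYFP replicate 1 and 1977 and 1836 without replicate 2. Both contrasts use the same doubly positive sums. The median log2 difference of all genes tested was -0.02 against Xcr1-only and -0.06 against Ccr7-only cells.

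Genes of type 1 DC identity lay, for the most part, between the other gates. Of 20 listed identity genes, 18 were higher in doubly positive than in Ccr7-only cells, with a median log2 difference of 3.40, and 14 were lower than in Xcr1-only cells, with a median of -0.58. Without Cd11cYFP replicate 2 these medians were 3.56 and -0.62. Naaa, which encodes an acid amidase that breaks down N-acylethanolamines, stood at 343, 414 and 369 CPM in doubly positive cells, 882, 891 and 794 in Xcr1-only cells and 16.9, 13.7 and 19.5 in Ccr7-only cells. All 3 gates were separate in every library, with a log2 difference of -1.11 ± 0.12 (SE) from Xcr1-only (edgeR adjusted p = 0.00011) and 4.59 ± 0.14 from Ccr7-only cells (edgeR adjusted p = 4.3e-08). Tlr3, the endosomal sensor of double-stranded RNA, followed the same order at 18.4, 48.2 and 41.7 CPM against 53.4, 129 and 88.8 in Xcr1-only and 1.13, 1.23 and 1.11 in Ccr7-only cells. It was among the genes furthest below Xcr1-only cells (log2 difference -1.22 ± 0.12), as was Tlr12, which with TLR11 senses profilin of protozoa (-1.16 ± 0.18).

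Clec9a, a receptor for actin of dead cells, was at 72.1, 96.2 and 98.5 CPM, between 158, 150 and 155 in Xcr1-only cells and 9.57, 8.84 and 9.78 in Ccr7-only cells. Irf8, the transcription factor that the lineage requires, showed a smaller span, with 1243, 1424 and 1346 CPM against 2074, 2082 and 1870 and against 671, 961 and 781. Its log2 differences were -0.50 ± 0.09 and 0.85 ± 0.09. Cadm1, an adhesion molecule, and Wdfy4, which is needed for cross-presentation, were likewise lower than in Xcr1-only cells by -0.29 ± 0.09 and -0.50 ± 0.14 and more than 3 log2 units higher than in Ccr7-only cells (3.36 ± 0.10 and 3.04 ± 0.15). Rab7b, a GTPase of late endosomes, had the largest difference from Ccr7-only cells of all genes named by the rule (5.54 ± 0.13), with 175, 234 and 207 CPM against 4.86, 4.06 and 5.30.

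A few identity genes did not follow this order. Batf3, the partner of IRF8, was at 136, 168 and 173 CPM in doubly positive, 172, 195 and 173 in Xcr1-only and 201, 252 and 251 in Ccr7-only cells, so it was highest in the gate that lacked Xcr1. It was lower than in Ccr7-only cells (-0.45 ± 0.08), and its difference from Xcr1-only cells did not pass (-0.10 ± 0.08, edgeR adjusted p = 0.40). Cd8a, whose CD8 alpha chain also marks type 1 DC and many T cells, was higher than in both (171, 181 and 213 CPM against 103, 128 and 142 and against 110, 70.5 and 98.4). T cell markers varied between the gates too, as given below, and their part in the Cd8a value was not tested. Cd207, the lectin langerin, differed more between libraries than between these 2 gates, with 344, 45.5 and 118 CPM in doubly positive and 318, 63.8 and 175 in Xcr1-only cells (edgeR adjusted p = 0.46).

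The maturation genes were found in all 3 libraries. Each of 22 listed maturation genes was higher in doubly positive than in Xcr1-only cells, with a median log2 difference of 4.11, and 17 were lower than in Ccr7-only cells, with a median of -1.30. Ccr7 and these genes are known to go together, so this count is bound to the gate. Fscn1, the actin bundler of mature DC, stood at 482, 576 and 610 CPM, against 12.4, 8.78 and 11.9 in Xcr1-only and 1829, 1973 and 1976 in Ccr7-only cells. The log2 differences were 5.74 ± 0.13 and -1.69 ± 0.11. Socs2, a feedback inhibitor of cytokine signalling, had 159, 196 and 179 CPM against 3.86, 2.79 and 3.04 and against 580, 756 and 629. After every cell was thinned to 5000 UMIs, Fscn1 had a UMI in 48.4% ± 1.37 of doubly positive, 4.72% ± 0.82 of Xcr1-only and 87.0% ± 2.91 of Ccr7-only cells (SD, n = 3). It had a UMI in 28.5% ± 3.08 of cells with 5 or more Cd79a UMIs and no Xcr1 UMI, called Cd79a cells from here on. The unthinned share in doubly positive cells was 62.6%.

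The chemokines of mature DC were intermediate. Of 20 tested cytokines, chemokines and their receptor chains, 13 were higher and 1 lower than in Xcr1-only cells. Against Ccr7-only cells, 4 were higher (8 without MAFIA replicate 2) and 6 lower. The 4 and the 6 were near the shares of all genes (22.5% higher and 22.8% lower), and nothing is read from them. Ccl22, a ligand of CCR4, was at 871, 412 and 648 CPM, against 26.5, 12.7 and 24.5 and against 2659, 893 and 1803. Ccl17, which binds the same receptor, gave 3.47 ± 0.35 against Xcr1-only and -1.41 ± 0.32 against Ccr7-only cells on the log2 scale. Ccl5, a chemokine of inflammation, was further from Ccr7-only cells, with 197, 1333 and 1416 CPM against 2733, 7689 and 6819 (log2 difference -2.70 ± 0.23). The MAFIA library had the lowest Ccl5 in every gate.

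Il12b was close to its Ccr7-only level. It was at 204, 681 and 484 CPM in doubly positive, 0.92, 29.9 and 26.3 in Xcr1-only and 239, 487 and 586 in Ccr7-only cells. The doubly positive and Ccr7-only levels overlapped (log2 difference 0.06 ± 0.42, edgeR adjusted p = 0.92), while the difference from Xcr1-only cells was 4.91 ± 0.50 (edgeR adjusted p = 6.4e-05). The transcripts were concentrated in few cells, since the 10% of doubly positive cells with the most held 81.3%, 61.0% and 54.3% of all their Il12b UMIs. At least 10 Il12b UMIs were found in 12.4%, 36.2% and 33.8% of doubly positive cells. The shares were 0%, 2.04% and 2.06% of Xcr1-only cells and 10.4%, 18.0% and 21.9% of Ccr7-only cells. This cutoff is in UMIs, and the median total UMIs of doubly positive cells were 1.69, 2.03 and 1.79 times those of Ccr7-only cells. The part of depth in these shares was not tested. After thinning to 5000 UMIs, 38.9% ± 12.2 of doubly positive, 33.5% ± 11.0 of Ccr7-only, 4.73% ± 3.71 of Xcr1-only and 2.26% ± 1.56 of Cd79a cells had an Il12b UMI. Il12a, which encodes the p35 subunit that pairs with p40 in IL-12, was at 0.324, 0.576 and 0.370 CPM, and Il27, the p28 subunit of IL-27, at 15.5, 32.5 and 9.54 CPM against 0.966, 0.348 and 0.217 in Xcr1-only cells.

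**Figure D2:**
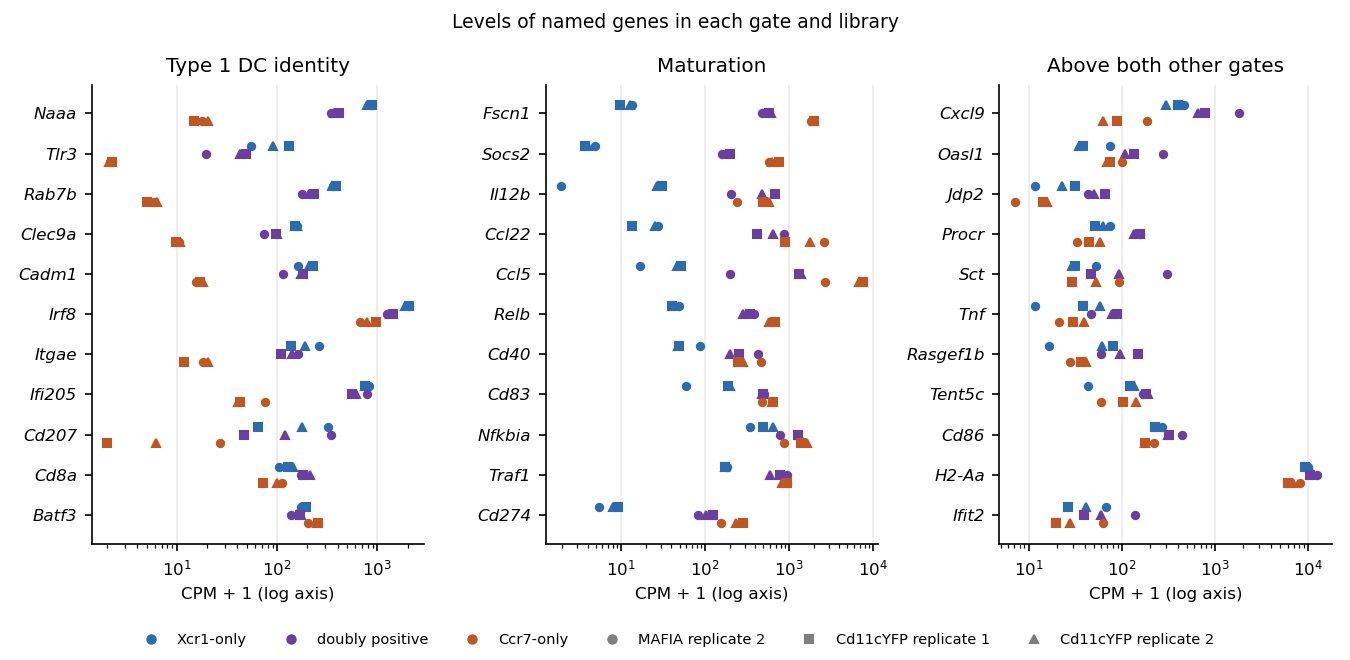
Level of each named gene as CPM + 1 on a log axis, 1 point per library and gate (colour for the gate, shape for the library). Identity genes such as Naaa (343 to 414 CPM in doubly positive cells) and maturation genes such as Fscn1 (482 to 610 CPM) lie between the other gates, and Cxcl9 and Oasl1 lie above both in every library.

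NF-kB genes were mostly higher than in Xcr1-only cells, and their differences from Ccr7-only cells were smaller. Of 23 listed subunits and regulators, 19 were higher than in Xcr1-only cells and none was lower (median log2 difference 1.24), and 11 were lower than in Ccr7-only cells (median -0.33), or 6 and 7 without Cd11cYFP replicate 1 or 2. Without doubly positive cells of 30000 UMIs or more or with a top doublet score, and with the other gates untrimmed, 4 were higher and 5 lower than in Ccr7-only cells. Nfkbia, whose promoter is printed above, was at 776, 1275 and 1337 CPM against 346, 488 and 645 in Xcr1-only and 878, 1407 and 1633 in Ccr7-only cells. It was higher than in Xcr1-only cells by 1.29 ± 0.07 on the log2 scale, and the difference from Ccr7-only cells did not pass (-0.10 ± 0.07). Rel gave 1.64 ± 0.15 and -0.25 ± 0.14, and Nfkb2 1.51 ± 0.09 and -0.33 ± 0.09. Traf1, an adaptor of TNF receptors, was at 958, 795 and 596 CPM against 181, 171 and 174 and against 963, 965 and 833. Birc2, a ubiquitin ligase of the same receptors, and Relb, the subunit of the noncanonical pathway, were further below Ccr7-only cells (-1.22 ± 0.09 and -0.80 ± 0.10). Of the 10 list members with the motif in their promoter, Chuk, Cyld and Nfkbid did not pass the test against Xcr1-only cells, with log2 differences of 0.09, -0.01 and 0.76.

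Costimulatory ligands differed by gene. Of 15 tested, 12 were higher than in Xcr1-only cells and 7 lower than in Ccr7-only cells, and 4 were higher than in the latter. The last count was near the 22.5% of all genes, and nothing is read from it. Cd40, which receives CD40 ligand from T cells, was at 431, 254 and 200 CPM against 86.4, 48.7 and 46.9 and against 466, 246 and 284. Cd83, a stabiliser of surface MHC class II, was at 502, 499 and 477 CPM against 58.1, 189 and 199 and against 479, 646 and 634. Neither differed from Ccr7-only cells by the test (-0.09 ± 0.10 and -0.11 ± 0.28). Cd274, which encodes PD-L1, and Cd70, the ligand of CD27, remained lower than in those cells (-1.04 ± 0.09 and -1.36 ± 0.24). Cd86, a ligand of CD28, was above both, with 443, 318 and 315 CPM against 267, 225 and 246 and against 220, 178 and 175 (0.61 ± 0.08 and 1.01 ± 0.08). Havcr2, which encodes TIM-3, was lower than in Xcr1-only cells (-0.50 ± 0.10) and higher than in Ccr7-only cells (2.43 ± 0.11).

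Antigen presentation genes differed by gene. Of 13 listed MHC class II genes, 5 were higher and 4 lower than in Xcr1-only cells, and 9 were higher and 2 lower than in Ccr7-only cells. H2-Aa, a class II chain, was at 12389, 10496 and 10879 CPM against 9885, 9227 and 10168 and against 8075, 6135 and 6799, and lay above both by 0.29 ± 0.06 and 0.79 ± 0.06. H2-DMb1, a chain of the peptide-loading chaperone, was at 546, 467 and 486 CPM between 938, 801 and 817 and 159, 134 and 104. Marchf1, the ubiquitin ligase that removes class II and CD86 from the surface of immature DC, was at 29.1, 58.9 and 58.4 CPM against 107, 132 and 121 and against 7.95, 10.5 and 8.96. Of 18 class I genes, 11 were higher and 1 lower than in Xcr1-only cells, and 6 were higher and 7 lower than in Ccr7-only cells. The 7 lower became 4 and 3 without Cd11cYFP replicate 1 or 2. They became 2, with 8 higher, without members of 30000 UMIs or more or with a top doublet score, the other gates being untrimmed. Tap1 and Tap2, the peptide transporter, were above both gates (Tap1 by 0.31 ± 0.07 and 0.39 ± 0.07, Tap2 by 0.46 ± 0.07 and 0.37 ± 0.07), and B2m, the light chain, lay between them (0.63 ± 0.10 and -0.56 ± 0.10).

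Genes above both other gates formed a small group. They were 179 of 14625, or 1.22%, and 69 genes, or 0.472%, were below both. Without Cd11cYFP replicate 2, the counts were 103 and 32, and without Cd11cYFP replicate 1 they were 98 and 8. With top doublet scores left out of all gates, they were 284 and 147. The contrasts share the doubly positive sums, so being above both is not the result of 2 independent tests. Cxcl9, a ligand of CXCR3, was at 1789, 786 and 658 CPM, against 466, 399 and 298 in Xcr1-only and 187, 86.8 and 61.7 in Ccr7-only cells. The gates did not overlap, with log2 differences of 1.42 ± 0.17 (edgeR adjusted p = 0.00019) and 3.39 ± 0.18 (edgeR adjusted p = 8.7e-07). After thinning to 5000 UMIs, 57.2% ± 7.42 of doubly positive, 39.1% ± 3.05 of Xcr1-only, 11.8% ± 3.71 of Ccr7-only and 3.70% ± 1.18 of Cd79a cells had a Cxcl9 UMI. Its receptor gene Cxcr3 followed the identity genes, at 8.09, 8.83 and 9.84 CPM against 18.8, 21.4 and 22.7 and against 1.13, 1.75 and 0.615. Jdp2, a repressor of the AP-1 family, was at 42.1, 64.7 and 49.9 CPM against 10.8, 30.3 and 22.0 and against 6.05, 13.2 and 14.8. Procr, the endothelial protein C receptor, was at 156, 156 and 133 CPM against 73.4, 49.9 and 61.0 and against 31.7, 43.9 and 57.7. Cxcl9, Jdp2, Procr and Oasl1 were above both in 16 of 16 alternative fits.

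The other genes named by the same rule were Sct, Tnf, Rasgef1b and Tent5c, each above both in 15 of 16 alternatives and lost when the library was not a block. Tnf, an inflammatory cytokine, was at 45.3, 87.4 and 77.8 CPM against 10.6, 37.0 and 56.7 and against 20.3, 29.3 and 38.1. Sct, the hormone secretin, was at 305, 46.1 and 91.4 CPM, and the MAFIA library was the highest in each gate (52.0, 30.4 and 28.4 in Xcr1-only and 92.6, 28.1 and 51.8 in Ccr7-only cells). Rasgef1b, an exchange factor for RAP GTPases, gave 1.13 ± 0.28 and 1.56 ± 0.29. The genes below both were closer to the other gates, with none past 1 log2 unit in both contrasts. S100a10, an annexin partner, was the furthest, at 62.4, 40.9 and 50.3 CPM against 79.5, 75.7 and 74.2 and against 126, 89.9 and 77.2.

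Interferon-stimulated genes made up part of the group above both. Of 20 listed, 16 were higher and 1 lower than in Xcr1-only cells (median log2 difference 0.72). Against Ccr7-only cells, 12 were higher and 5 lower (median 0.37), the 5 being near the 22.8% of all genes. In all, 8 were above both, a count that ranged from 1 to 10 over 16 alternatives. It was 1 when the library was not a block and 4 without Cd11cYFP replicate 2. Oasl1, an inhibitor of IRF7 translation, was at 273, 135 and 108 CPM against 74.0, 37.4 and 33.3 and against 98.3, 73.0 and 67.6 (1.90 ± 0.15 and 1.10 ± 0.14). Isg15, a ubiquitin-like protein, was at 1159, 559 and 518 CPM against 520, 251 and 246 and against 928, 417 and 446. Ifit2, which binds RNA, gave 0.81 ± 0.11 and 1.21 ± 0.11. Gbp2, a guanylate-binding protein that interferon gamma induces, did not share this order, and at 31.7, 31.3 and 29.6 CPM was far below Ccr7-only cells (156, 138 and 110 CPM). Bst2, a member of the list, is expressed by plasmacytoid DC too.

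**Figure D3:**
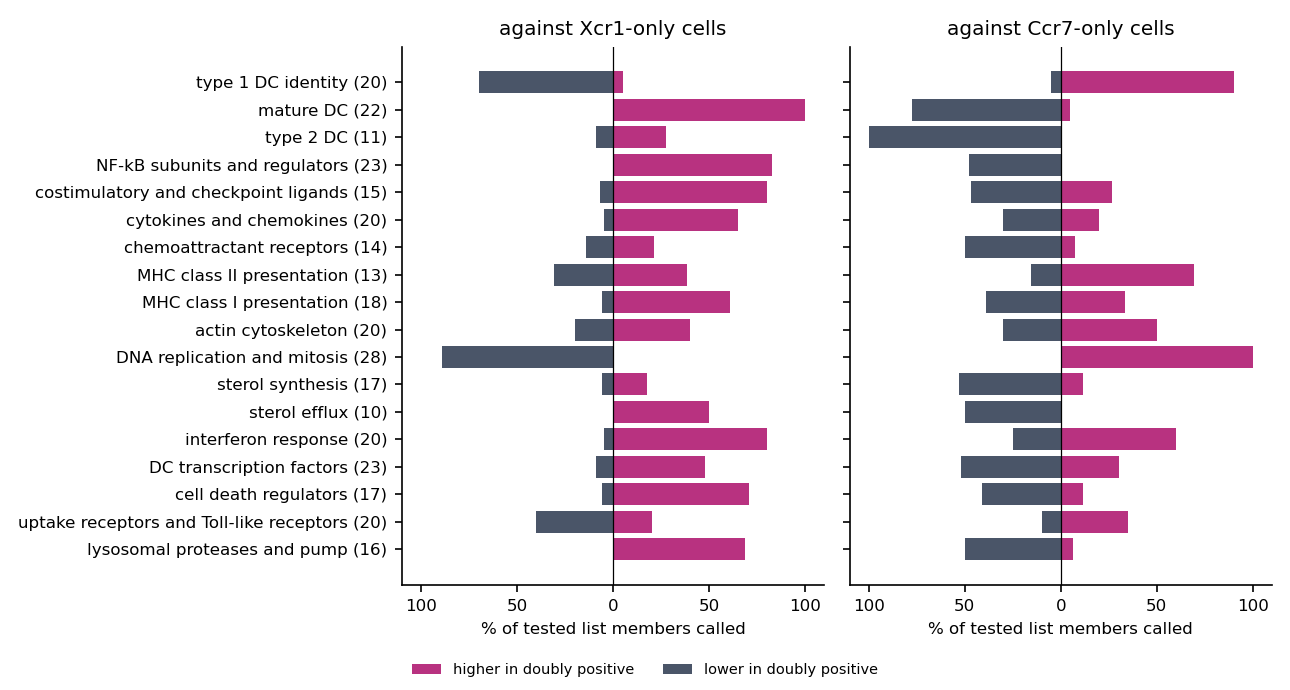
Share of the tested members of each list that were higher (right) or lower (left) in doubly positive cells, against Xcr1-only cells and against Ccr7-only cells, in percent of the list. Type 1 DC and maturation lists point opposite ways in the 2 panels, and the interferon list has members to the right in both (16 of 20 and 12 of 20).

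Transcription factors and death regulators showed further differences. Of 23 listed factors, 11 were higher and 2 lower than in Xcr1-only cells, and 7 were higher and 12 lower than in Ccr7-only cells. The 7 higher were not far from the 22.5% of all genes. Stat4, which signals from the IL-12 receptor, was at 12.9, 39.9 and 37.1 CPM against 0.966, 1.66 and 1.11 and against 83.5, 235 and 167. Irf4, which serves type 2 DC and mature DC, was at 5.50, 9.22 and 13.4 CPM against 1.10, 1.62 and 3.16 and against 41.9, 46.2 and 55.9. Batf, a relative of BATF3, lay above both by 0.92 ± 0.15 and 0.69 ± 0.15. Of 17 death regulators, 12 were higher than in Xcr1-only cells and 7 lower than in Ccr7-only cells (4 without Cd11cYFP replicate 1). Both the killer Bcl2l11 (BIM) and the survival factor Cflar (cFLIP) were among those higher than in Xcr1-only cells (1.65 ± 0.12 and 2.33 ± 0.10), and neither differed from Ccr7-only cells by the test (0.16 ± 0.12 and -0.23 ± 0.10).

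Division and lysosomal genes lay in opposite places. Of 28 genes of DNA replication and mitosis, 25 were lower than in Xcr1-only cells (16 without Cd11cYFP replicate 1; median log2 difference -0.67) and 28 higher than in Ccr7-only cells (median 1.22). The second count depended on which cells were used. It was 3 when all gates were limited to 10000 to 30000 UMIs, and the median against Xcr1-only cells was then -0.81. It was 1, with 3 lower, when doubly positive cells of 30000 UMIs or more or with a top doublet score were left out. In that setting 27 were lower than in Xcr1-only cells (median -2.56). It trimmed doubly positive cells alone and kept cells of any depth in the other gates. A difference between gates and this uneven trimming cannot be told apart there. Top2a, a topoisomerase of dividing cells, was at 138, 120 and 136 CPM against 253, 202 and 214 and against 92.6, 63.3 and 55.8. Its difference from Ccr7-only cells changed sign from 1.04 to -0.40 with the window on all gates. It was -1.21 with doubly positive cells alone trimmed. Of 16 lysosomal genes, 11 were higher than in Xcr1-only cells and 8 lower than in Ccr7-only cells. Lamp1, a membrane protein of lysosomes, was at 156, 209 and 193 CPM against 34.2, 48.3 and 37.4 and against 527, 653 and 574.

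Some counts in lists of receptor, actin and lipid genes were near the shares of all genes (18.2% higher and 17.5% lower than in Xcr1-only cells, 22.5% and 22.8% against Ccr7-only cells). These were chemoattractant receptors against Xcr1-only cells, uptake receptors and sterol synthesis genes higher than in Xcr1-only cells, and actin genes lower than in them. Nothing is read from those counts. The other counts lay further from the shares of all genes, in lists of 10 to 20 genes. Of 14 tested chemoattractant receptors other than the pair that chose the cells, 3 were higher and 2 lower than in Xcr1-only cells, and 1 was higher and 7 lower than in Ccr7-only cells. Without MAFIA replicate 2, 5 were higher and 4 lower than in Xcr1-only cells. Ccrl2, which binds chemerin, was at 11.3, 51.3 and 59.7 CPM against 2.85, 12.7 and 17.2. Gpr183, the receptor for oxysterols, was lower than in Ccr7-only cells (46.3, 53.6 and 53.3 against 236, 254 and 179 CPM) and gave 0.41 ± 0.30 against Xcr1-only cells. Of 20 uptake and Toll-like receptors, 4 were higher and 8 lower than in Xcr1-only cells, and 7 were higher and 2 lower than in Ccr7-only cells. The 8 lower became 5 without Cd11cYFP replicate 2. Ly75, which encodes DEC-205, and Axl, a receptor for dead cells, were among those higher (1.76 ± 0.18 and 2.44 ± 0.29). Of 20 actin genes, 8 were higher and 4 lower than in Xcr1-only cells, and 10 were higher and 6 lower than in Ccr7-only cells. Of 17 sterol synthesis genes, 3 were higher and 1 lower than in Xcr1-only cells, and 2 were higher and 9 lower than in Ccr7-only cells, the 3 and the 9 becoming 1 and 5 without Cd11cYFP replicate 2. Of 10 genes of sterol efflux, 5 were higher than in Xcr1-only cells and 5 lower than in Ccr7-only cells (1 without Cd11cYFP replicate 2), and Abcg1, a cholesterol exporter, gave 0.96 ± 0.09 and -0.89 ± 0.08.

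The place of each gene between the other gates was expressed as a percentage, with 0% at the Xcr1-only level and 100% at the Ccr7-only level on plain CPM, for genes that differed at least 2-fold between those gates and reached 20 CPM in 1 of them. A sum of 2 cells with fixed shares of UMIs would place every gene at the same percentage, apart from counting error. That holds only where every member is such a sum of cells typical of the other gates. The part of doublets in these positions was not tested. The median over 1760, 2020 and 1897 genes was 49.3%, 43.8% and 41.1%, with the 10th percentile at 15.9% ± 4.26 and the 90th at 71.7% ± 11.8 (SD, n = 3). Genes high in Ccr7-only cells had a median of 33.0% ± 1.16 and genes high in Xcr1-only cells one of 54.5% ± 6.88. List medians were 44.5% ± 8.56 for type 1 DC identity, 36.1% ± 1.61 for maturation, 60.6% ± 9.99 for NF-kB, 63.4% ± 3.97 for death regulators and 28.2% ± 3.26 for lysosomal genes. The spread over single genes includes their counting error, which was not separated here.

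Within cells with 2 or more Xcr1 UMIs, levels were followed over the number of Ccr7 UMIs (0, 1, 2 to 4, 5 to 19, and 20 or more). Ccr7 chose the bins, so these values are a description. Naaa went from 882 to 826, 661, 232 and 108 CPM in the MAFIA library, from 891 to 868, 642, 453 and 217 in Cd11cYFP replicate 1 and from 794 to 757, 554, 322 and 308 in replicate 2. It was lower with each step in every library. Nfkbia stood at 346, 453, 642, 875 and 819 CPM over the same bins in the MAFIA library, at 488, 501, 1088, 1242 and 1437 in Cd11cYFP replicate 1 and at 645, 705, 995, 1445 and 1437 in replicate 2. Fscn1 was at 121, 35.1 and 51.6 CPM with 2 to 4 Ccr7 UMIs, at 370, 202 and 292 with 5 to 19, and at 1011, 1203 and 1037 with 20 or more. Cxcl9 was already at 2147, 965 and 607 CPM with 2 to 4 Ccr7 UMIs, and it was highest there or, in Cd11cYFP replicate 2, with 5 to 19 UMIs (929 CPM). Il12b was at 8.35, 83.0 and 108 CPM with 2 to 4 and at 587, 1268 and 737 CPM with 20 or more. The bins with 2 or more hold 33 to 223 cells per library, and median UMIs ran from 22245 to 29789 over them.

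**Figure D4:**
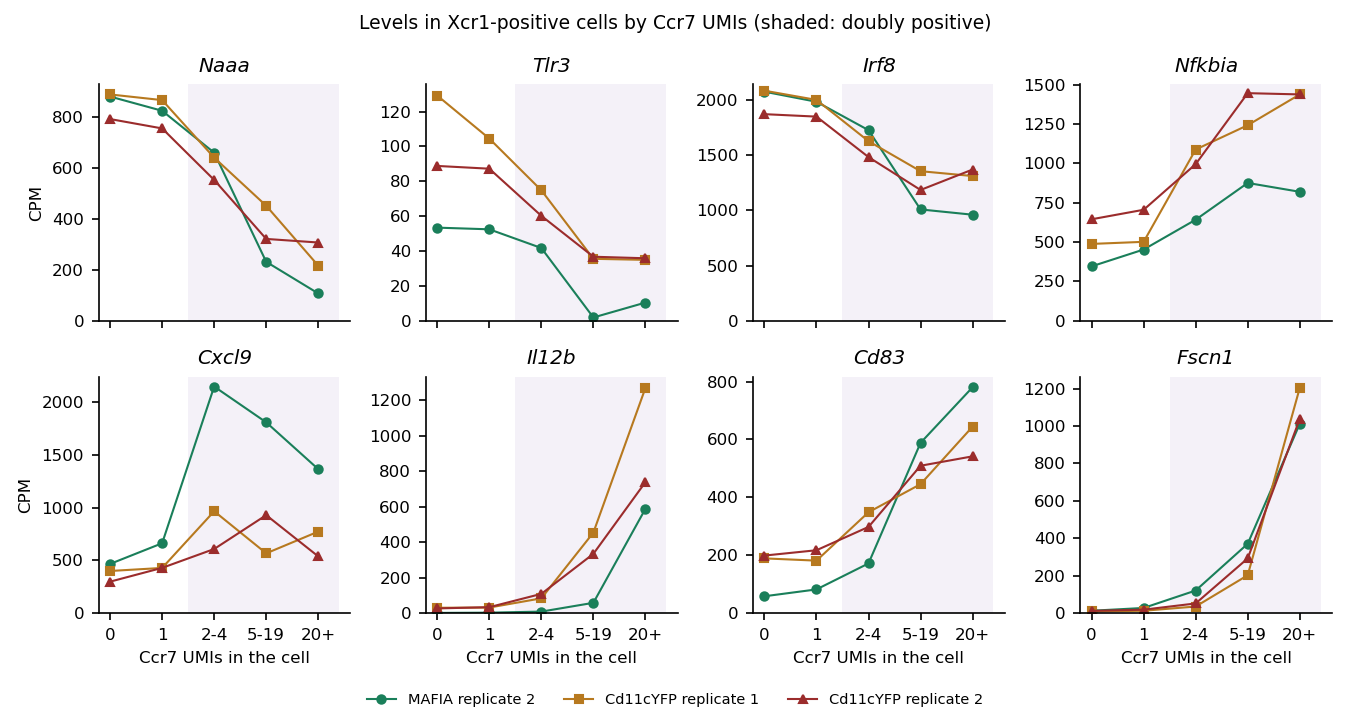
CPM of 8 genes in cells with 2 or more Xcr1 UMIs, by the number of Ccr7 UMIs in the cell (horizontal axis, 5 bins), 1 line per library. The shaded bins are the doubly positive cells. Naaa is lower with each step, and Tlr3 and Irf8 are lower in every shaded bin than in Xcr1-only cells. Fscn1 rises with each step and is highest in the last bin (1011 to 1203 CPM). Cxcl9 is above its Xcr1-only level with 2 to 4 Ccr7 UMIs.

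Doubly positive cells were not uniform. No Fscn1 UMI was found in 36.2%, 38.9% and 37.2% of them, 1 to 9 in 27.6%, 21.6% and 23.4%, and 10 or more in 36.2%, 39.5% and 39.4%. The 3 libraries gave almost the same split. Top doublet scores were found in 7.89%, 8.33% and 12.4% of cells without Fscn1 and in 21.1%, 42.5% and 56.3% of cells with 10 or more UMIs. Median UMIs of the latter were 28069.5, 28404 and 31701, and of the former 26267.5, 26748.5 and 22448.5. Cells without Fscn1 had Naaa at 511, 545 and 371 CPM, Irf8 at 1501, 1444 and 1269, and Nfkbia at 713, 1181 and 1284, above the Xcr1-only level of Nfkbia in each library. Their Cxcl9 stood at 3022, 1109 and 1201 CPM, against 869, 554 and 381 in cells with 10 or more Fscn1 UMIs.

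The comparison with Xcr1-only cells was repeated on doubly positive cells without Fscn1, an alternative chosen after the data were seen. Of 14715 genes tested, it called 930 higher and 956 lower. These members still held 2 or more Ccr7 UMIs and the Xcr1-only cells none, so genes that go along with Ccr7 are bound to be higher here too. Of 22 maturation genes, 21 were higher than in Xcr1-only cells, a count bound to the gate. The median log2 difference was 1.92, and Fscn1, at 0 by construction, was the exception. Il12b gave 4.07 ± 0.50, Nfkbia 1.12 ± 0.08 and Cxcl9 2.06 ± 0.18. Cells with Il12b and no Fscn1 UMI were 8.57%, 20.0% and 16.2% of doubly positive, 2.04%, 12.2% and 10.6% of Xcr1-only and 0.381%, 0.948% and 0.624% of Ccr7-only cells.

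**Figure D5:**
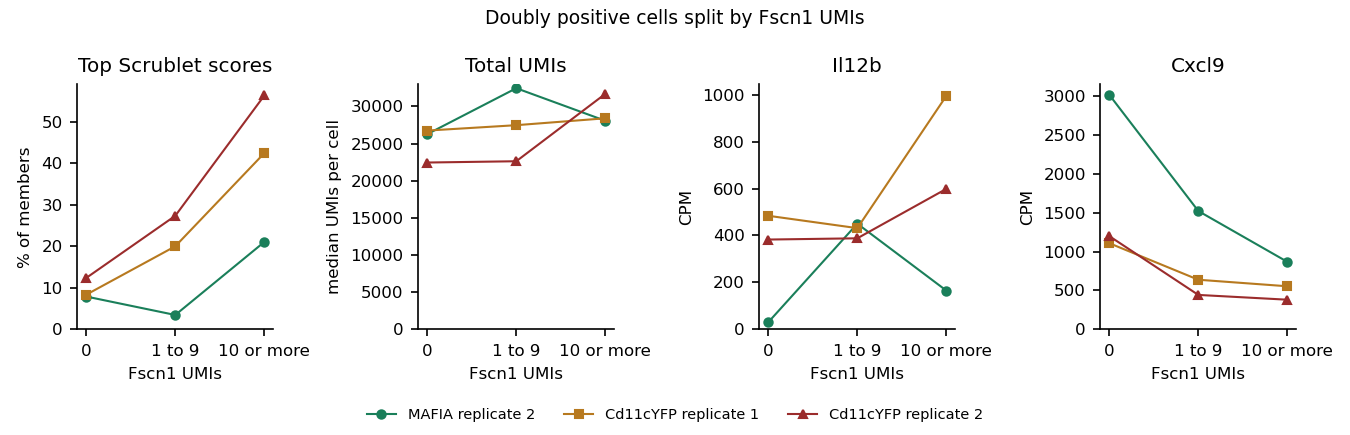
Doubly positive cells split by their Fscn1 UMIs (0, 1 to 9, 10 or more; horizontal axis), 1 line per library. Cells without Fscn1 carry the most Cxcl9 (1109 to 3022 CPM), and fewer of them have top doublet scores (7.89% to 12.4%) than of cells with 10 or more Fscn1 UMIs (21.1% to 56.3%).

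At the edges of the gate, members were set beside the cells just outside, with no test. With exactly 2 Ccr7 UMIs, cells had 23.1, 23.3 and 38.5 CPM of Fscn1 and 892, 763 and 666 of Naaa, and cells with 1 Ccr7 UMI had 27.4, 12.4 and 18.2 and 826, 868 and 757. With exactly 2 Xcr1 UMIs, cells had 1190, 1579 and 1267 CPM of Fscn1 and 55.7, 72.2 and 59.0 of Naaa, and cells with 1 Xcr1 UMI had 1699, 1928 and 1861 and 37.2, 35.5 and 22.2. At the Xcr1 edge, Naaa was higher and Fscn1 lower inside the cutoff than outside in every library. At the Ccr7 edge, Fscn1, Naaa, Clec9a and Socs2 did not differ in 1 direction over the 3 libraries. Ccl22 and Il12b were higher inside the Ccr7 cutoff than outside in every library. Inside it, Ccl22 stood at 109, 42.1 and 65.2 CPM. Il12b was at 4.96, 35.8 and 50.8 CPM inside, against 2.31, 31.2 and 33.3 with 1 Ccr7 UMI.

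Markers of other cell types were measured in each gate. The sum of 5 T cell markers was 223, 81.0 and 98.8 CPM in doubly positive cells, 46.7, 25.8 and 53.0 in Xcr1-only cells and 547, 455 and 266 in Ccr7-only cells, with none of the markers at 0 and Trbc2 the highest. At least 3 such UMIs were found in 15.2%, 7.57% and 6.20% of doubly positive cells. Their part in the differences was not tested directly, and leaving out cells with lymphocyte or Siglech UMIs gave 2791 genes higher than Xcr1-only cells and 216 above both. The 7 type 2 DC markers summed to 53.1, 34.4 and 55.9 CPM in doubly positive, 52.9, 27.6 and 41.2 in Xcr1-only and 231, 153 and 183 in Ccr7-only cells, with 1 marker at 0 in each doubly positive sum. Of 11 tested genes of the wider type 2 DC list, none was higher and 11 were lower than in Ccr7-only cells (7 without Cd11cYFP replicate 1; median log2 difference -1.58), and 3 were higher and 1 lower than in Xcr1-only cells. The 6 macrophage markers summed to 90.9, 63.0 and 64.9 CPM against 43.4, 31.5 and 25.2 and against 116, 60.4 and 68.3, mostly Vcam1. The 4 B cell markers stayed at 12.4 CPM or less in doubly positive cells. Plasmacytoid DC markers, mostly Bst2, summed to 979, 425 and 515 CPM against 773, 388 and 403 and against 1087, 479 and 548. Monocyte markers, mostly Plac8, summed to 378, 573 and 433 CPM against 480, 1075 and 614 and against 614, 368 and 183. Fibroblast markers, mostly Dcn, gave 0.971, 61.8 and 9.69 CPM against 0.230, 1.32 and 3.28 and against 0.141, 52.3 and 27.1.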

How the data were processed

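Thymic cells sorted on GFP or YFP were profiled by droplet sequencing of RNA 3' ends, and the deposited files hold UMI counts per gene and cell that the authors made with Cell Ranger and left without normalization. The submitters' processing notes name GRCm39, STAR 2.7.9a and bcl2fastq 2.20. The libraries used here held 6347 to 9737 barcodes with medians of 15759 to 17493 UMIs, and pairs of libraries of the series shared 9 to 23 barcodes. MAFIA replicate 1 was outside the rule and entered no comparison.

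UMIs were summed per library and gate (9 sums), genes were filtered with filterByExpr, scaled by TMM (factors 0.931 to 1.06) and compared with edgeR 4.0.16 in R 4.3.3 with terms for gate and library (4 residual degrees of freedom, common coefficient of variation 0.103, threshold 0.05 after Benjamini-Hochberg adjustment). The gates of a library come from the same animal, so the library is the pairing, and the labels do not say whether replicates were otherwise independent; p-values measure the spread between these 3 libraries. Doublets were not removed from the main comparison: Scrublet scores (scanpy 1.11.5) were computed per library, and 5.08% to 7.79% of cells with the highest scores were called top scores, at 0.8% per 1000 cells. For shares of cells with a UMI, the share expected after thinning each cell to 5000 UMIs was computed exactly, without random draws. No cell was left out, and every cell of these libraries held at least 5886 UMIs. The fit was tested on simulated data before use.

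The members and gene lists were chosen with earlier results of these data known. Named genes are list members, the 8 largest differences per contrast and direction, and the 8 genes furthest above or below both gates, among genes that passed, had 1 direction in every library and at least 30 CPM in the higher gate. The alternatives changed the UMI cutoffs, C1q and mitochondrial limits, doublet and lymphocyte filters, UMI window, low-count filter, block, tool (DESeq2 1.42.0) and libraries, and 2 were added after the data were seen (members without Fscn1 UMIs, and members with fewer than 30000 UMIs and no top score). Those 2 changed the doubly positive cells only, and the other gates kept all their cells. Promoter sequences are from RefSeq, in a build other than that of the counts, and no coordinates were converted.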

Additional observations from a re-analysis of the deposited data

Results flagged for a closer look

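The difference between doubly positive and other cells was compared between the reporters by an interaction term in edgeR's quasi-likelihood test, over 1 MAFIA and 2 Cd11cYFP libraries, so that reporter, sex, age and library cannot be told apart. With 1 MAFIA library, the test assumes that MAFIA libraries vary like the Cd11cYFP ones, so a difference may be that of this library alone. Over all 14625 genes, 28 (0.191%) passed for the contrast with Xcr1-only cells and 14 (0.0957%) for that with Ccr7-only cells. Among the named genes that passed, the MAFIA minus Cd11cYFP difference in log2 change from Xcr1-only cells was 3.46 for Il12b, 2.12 for Cxcl10, 1.81 for Cd83, 1.48 for Tent5c and 0.91 for Cxcl9. For Ccl5 it was -1.17 against Xcr1-only and -1.32 against Ccr7-only cells. For Il12b and Cd83 the MAFIA library had the lowest Xcr1-only level (0.92 and 58.1 CPM).

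MAFIA replicate 1, which the rule did not use, held 103 cells that met the same cutoffs, 1.88% of its filtered cells (exact Clopper-Pearson 95% interval 1.53 to 2.27). It was shallower, with a median of 4849 UMIs in these cells, which was 0.606 of the sum of its Xcr1-only and Ccr7-only medians. These cells held a median of 2 UMIs each of Xcr1 and Ccr7, at the cutoff itself. Because the cutoffs are in UMIs, this share cannot be set beside that of the deeper libraries.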

How the results depend on the processing

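The share of doubly positive cells was 3.09% ± 1.83 (SD, n = 3). It was 2.08% with at least 3 and 1.39% with at least 5 UMIs of Xcr1 and Ccr7. It was 2.26% without top Scrublet scores, 1.85% with 10000 to 30000 UMIs and 2.71% without cells with lymphocyte or Siglech UMIs. The C1q and mitochondrial limits gave 2.92% and 3.08%, and leaving out each library 2.05% to 3.79%. All lay within 1 SD of the main share, but that SD is wide. Members without Fscn1, which are part of the gate, were 1.16%. The ratio of the median UMIs of doubly positive cells to the sum of the other medians (0.691) and the median position of genes (44.7%) were recomputed only without each library, and moved by less than 1 SD. Counts of genes moved more. Without the replicate block, 1606 genes were higher and 1257 lower than in Xcr1-only cells, 2045 were lower than in Ccr7-only cells, 31 were above both and 20 below both. With at least 5 UMIs of Xcr1 and Ccr7, 1484 were lower than in Xcr1-only cells and 22 below both. Members without Fscn1 gave 930 higher and 956 lower than Xcr1-only cells. With all gates limited, counts above and below both were 284 and 147 without top Scrublet scores and 289 and 118 with 10000 to 30000 UMIs. They were 433 and 313 with members of fewer than 30000 UMIs and no top score, where the other gates were untrimmed. There were 311 above both without the low-count filter and 35 below both with DESeq2.

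Leaving out each library in turn gave 1648 to 2752 genes higher and 1056 to 2343 lower than in Xcr1-only cells, 1977 to 3937 higher and 1836 to 3049 lower than in Ccr7-only cells, 98 to 215 above both and 8 to 41 below both; the lowest values came without a Cd11cYFP replicate, and 41 without MAFIA replicate 2.

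Of 4916 values for 154 named genes under the alternatives, 4587 kept their side of the threshold. Any change of sign where neither fit passed is counted among them. With the sign kept, 240 no longer passed and 79 newly passed. Another 10 changed sign where the main fit, the alternative or both passed. Without Fscn1 in the members, these were Fscn1 by construction (-10.8), Clu (-1.34) and Cadm1 (0.080) against Xcr1-only cells. With members of fewer than 30000 UMIs and no top score, Cd40 (0.44), Nfkb2 (0.020), Traf1 (0.33), Cxcl16 (0.36) and Top2a (-1.21) did so against untrimmed Ccr7-only cells. Top2a was at -0.40 with 10000 to 30000 UMIs, and Ccr9 at 1.52 without cells with lymphocyte or Siglech UMIs. The cause was not tested.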
